A study of Mus musculus with 6 samples.

Results

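The cell cycle and DNA replication genes are 41 listed genes that copy the genome in S phase, drive entry into S phase, or carry the cell through G2 and mitosis. They were taken by gene symbol through the platform's probe annotation, and 34 of the 41 had a probe, each with 1 probe of its own, among 6041 genes named on the array. These 34 comprise 10 S phase genes (Mcm2 to Mcm7, Pcna, Rrm1, Rrm2 and Tyms), 7 genes of G1 and the start of S phase (Ccnd1, Ccnd2, Cdk4, Ccne1, Cdk2, E2f1 and Tk1) and 17 genes of G2 and mitosis. Ccnb1, Cdc25b, Kif23, Nusap1, Prc1, Tacc3 and Ube2c were not analysed here. Of the 34, 32 had at least 2 values in each dye orientation and were tested, and Tk1 and Aurkb were not.

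RNA came from the neocortex of 6 C57BL/6 null mutant mouse embryos at embryonic day 14, each set on an array of 2 colours against a wild-type pool of the same background, region and age, made from 6 animals. The labels describe the mutants as synaptically silent. The mutant carried cy3 on arrays 1, 2 and 3 and cy5 on arrays 4, 5 and 6, and each array is 1 mutant embryo. The pool is 1 control sample, so the spread between wild-type animals is not part of any test, and the number of arrays limits the precision.

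In the embryonic neocortex, progenitors divide along the ventricle and in the zone above it, and their daughters leave the cycle as neurons. A cell about to replicate loads the Mcm2 to Mcm7 helicase on its origins in G1. The clamp protein Pcna holds the polymerases on the template, and ribonucleotide reductase (Rrm1, Rrm2) and thymidylate synthase (Tyms) supply the nucleotides. Cyclin A, cyclin B and Cdk1 then carry the cell into mitosis, where Aurora and Polo kinases, kinesins and centromere proteins separate the chromosomes. In bulk tissue, fewer dividing cells and less of a transcript per dividing cell cannot be told apart.

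Values are the deposited log ratios, read as log2 with the base assumed. The deposited table does not state which RNA stands on top, so signs are given as deposited, and each estimate is also given with arrays 1 to 3 turned. The first reading takes every array as mutant over pool. The second takes every array as the same dye over the other and turns arrays 1 to 3 so that the mutant is on top in all. Xist, which coats the silenced X of female cells, lay at 0.61, 0.71, 0.31, 0.24, -3.17 and -2.58 on arrays 1 to 6. If the pool held both sexes, which is not known, the values on arrays 5 and 6 would place the mutant on top there, which both readings assume. Turned, the values of arrays 1 to 3 would be below 0, while that of array 4, on which both readings place the mutant on top, is above 0. The reading of arrays 1 to 3 was not tested. With arrays 1 to 3 turned, the mutant effect is the contrast of arrays 4 to 6 with arrays 1 to 3 in the deposited values. A mutant effect under that reading and a dye effect under the other cannot be told apart.

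The arrays fell into 3 pairs. Across probes, Pearson's r was 0.36 between arrays 1 and 2, 0.59 between arrays 3 and 4, which differ in orientation, and 0.21 between arrays 5 and 6. It was between -0.37 and 0.06 for every other pair of arrays. Arrays 3 and 4 were also the widest over all probes, with standard deviations of 1.09 and 0.62, against 0.35 to 0.52 on the others. Their medians lay at -0.23 and -0.13, and those of the others between -0.005 and 0.05. Results are therefore also given without arrays 3 and 4.

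No cell cycle or replication gene differed between mutants and pool past the threshold under either reading. In limma, 0 of these 32 genes passed an adjusted p of 0.05, against 0 of 4958 probes in all (0% called under both readings). At an unadjusted p under 0.05 there were 0 of 32 as deposited, where 1.77% of all probes stood, and 2 of 32 with arrays 1 to 3 turned, where 4.6% stood. Both of these, Rrm1 and Top2a, were below 0, as were 2.1% of all probes at that level. As deposited, 16 estimates lay above and 16 below 0, with a median of -0.001 beside -0.03 over all probes, of which 43.3% lay above 0. With arrays 1 to 3 turned, 9 lay above and 23 below 0, with a median of -0.08 beside 0.02 over all probes, of which 53% lay above 0. The standard errors of the 32 estimates ran from 0.11 to 0.31. These take the 6 arrays as independent. With the pairs of arrays 1 and 2, 3 and 4, and 5 and 6 as a random block, chosen after seeing the data, limma estimated a correlation within pairs of 0.86 as deposited and 0.73 turned. The standard errors of the 32 estimates then ran from 0.21 to 0.49 as deposited and from 0.18 to 0.44 turned. With this block 0 of 32 had an unadjusted p under 0.05 in either reading, where 0.0807% of all probes did as deposited and 0.383% turned. Rrm1 then had an unadjusted p of 0.124 and Top2a of 0.0824 in the turned reading. Turning array 3 but not array 4 reverses the sign of the correlation between them, which was 0.59 as deposited. The 1 shared correlation of 0.73 therefore does not describe that pair, and the turned results with this block carry that limit.

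The unadjusted counts moved with the choice of arrays, for these genes and for all probes. Without arrays 3 and 4, 21 of 31 estimates lay above 0 as deposited, where 62.6% of all probes did, and 11 of 31 turned, where 47.8% did. At an unadjusted p under 0.05, 6 of 31 then lay above 0 as deposited (Ccnd2, Cdk2, Mki67, Ccna2, Cenpe and Hmgb2), against 8.04% of probes, and 8 of 31 below 0 turned, against 12.8%. After adjustment 0 of 31 passed in either reading, where 0.0212% of all probes passed as deposited and 0% turned. With each array weighted by its own noise, 3 of 32 lay above 0 at that level as deposited (Mki67, Ccna2 and Cenpe), against 7.3% of probes, and 10 of 32 below 0 turned, against 15.4%. Including Plk1 above 0, 11 of 32 turned estimates were at that level, against 27.3% of probes. In the weighted fits 0 of 32 passed after adjustment, where 0.0403% of all probes passed as deposited and 0.625% turned, and the smallest adjusted p among these genes was 0.0552, turned. Cenpe alone stood above 0 at that level once arrays were scaled to the same width (against 2.34% of probes), and Mki67 alone without array 3 (against 1.8%). Turned, there were 3 below 0 with arrays centred (Rrm1, Rrm2 and Top2a, against 2.46%) and 6 without array 3 (against 8.01%).

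**Figure D1:**
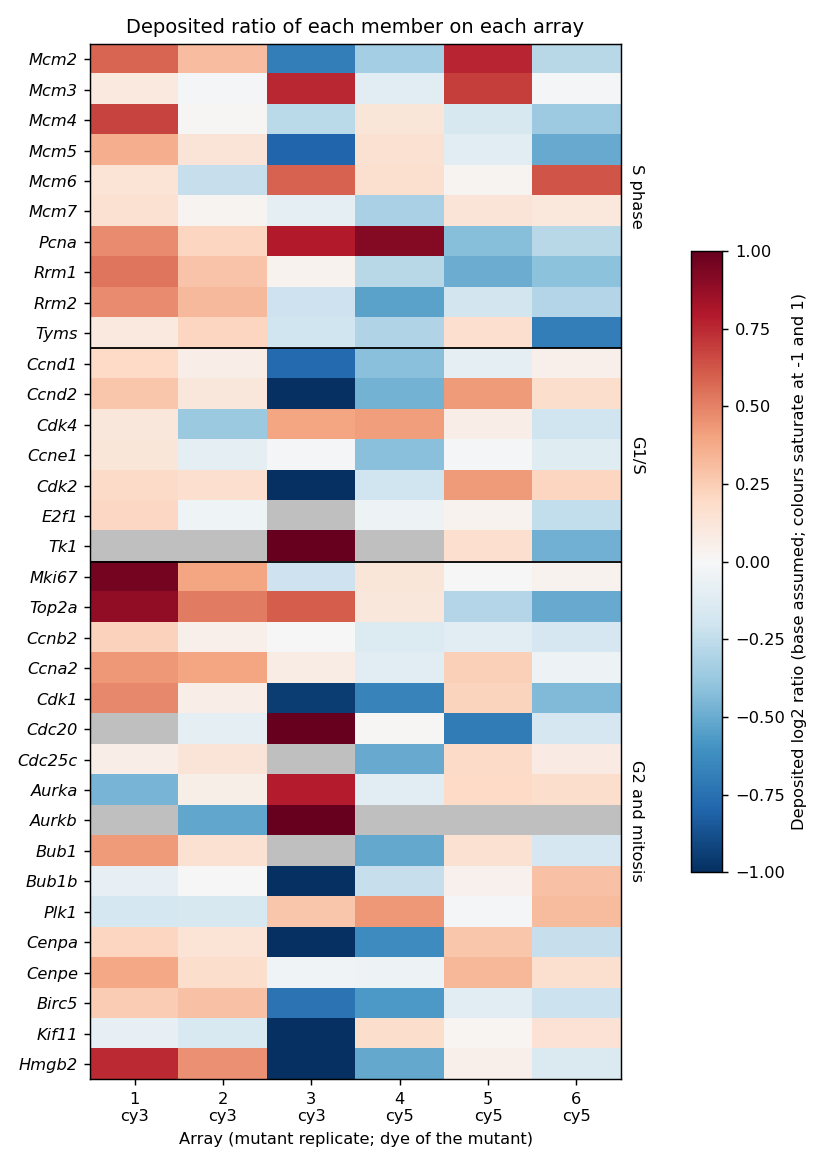
Deposited log2 ratio (base assumed) of each of the 34 genes (down the page, by role) on each of the 6 arrays (across, with the dye of the mutant). Grey cells hold no value, and colours saturate at -1 and 1, beyond which array 3 holds values from -2.12 to 2.16. Arrays 1 and 2 are mostly above 0, with 27 of 31 and 23 of 33 values, and array 3 holds the most extreme colours.

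The share of these genes above 0 differed from array to array, also within the pair of arrays 5 and 6. On array 1, 27 of 31 values lay above 0, where 56.1% of all probes did, and on array 2, 23 of 33, where 57.1% did. Array 3 had 12 of 31 above 0 (41.8% of all probes) and array 4 had 10 of 32 (40.3%). On arrays 5 and 6 there were 21 of 33 (55.4%) and 12 of 33 (49.4%). The share above 0 thus stood above that of all probes on arrays 1, 2 and 5 and below it on arrays 4 and 6. On array 3 it was close to that of all probes, at 38.7%. Set against each array's own median, 27, 21, 19, 15, 17 and 12 of these values lay above it on arrays 1 to 6. The median percentiles of these genes among all probes were 73.9, 62.7, 55.1, 46.5, 50.6 and 31.6.

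The S phase genes lay high on arrays 1 and 2 and mostly low on array 6. Their medians on arrays 1 to 6 were 0.42, 0.17, -0.14, -0.20, -0.04 and -0.29. As ranks among all probes of the same array, these genes had a median percentile of 90.4 on array 1 and 72.5 on array 2, against 39.7 on array 5 and 19.2 on array 6. On arrays 3 and 4 it was 53.1 and 44.0. All 10 genes lay above 0 on array 1 and 8 of 10 on array 2, while 5 of 10 did on array 5 and 2 of 10 on array 6. The combination of values above 0 on arrays 1 and 2 and below 0 on arrays 5 and 6 was seen for 5 of the 10 (Mcm4, Mcm5, Pcna, Rrm1 and Rrm2), where 16.9% of all probes with values on these arrays had it. Values above 0 on arrays 1 and 2 alone were seen for 22 of the 31 cell cycle and replication genes with 4 values there, against 44.5% of probes, and values below 0 on arrays 5 and 6 for 9 of 31, against 29.9%. All 4 values were above 0 for 6 of 31 (Ccnd2, Cdc25c, Cdk2, Cenpe, Mcm7 and Mki67), against 11.7%. Xist too was above 0 on arrays 1 and 2 (0.61 and 0.71) and below 0 on arrays 5 and 6 (-3.17 and -2.58). Whether embryo sex has a part in these combinations was not tested. The combinations were not planned in advance, and the genes were chosen with earlier results of these data known.

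The promoters of 3 of these S phase genes are shown because S phase and mitotic genes are known to be switched by different promoter elements. E2F factors act on S phase genes through the E2F site, searched here as TTTCCCGC, TTTCGCGC, TTTGCCGC or TTTGGCGC. Many mitotic genes carry a cell cycle homology region (CHR), searched as TTTGAA or TTCGAA, beside CCAAT boxes bound by NF-Y, searched as CCAAT. The search covered both strands of the 250 bases before the annotated start in RefSeq's GRCm38.p6, and the promoter of 28 of the 34 genes was listed. Capitals mark every match, 5′ to 3′ along the gene's strand. Rrm1 lies at chr7:102441445-102441694 on the plus strand, Pcna at chr2:132253181-132253430 on the minus strand and Mcm5 at chr8:75109259-75109508 on the plus strand.
Rrm1: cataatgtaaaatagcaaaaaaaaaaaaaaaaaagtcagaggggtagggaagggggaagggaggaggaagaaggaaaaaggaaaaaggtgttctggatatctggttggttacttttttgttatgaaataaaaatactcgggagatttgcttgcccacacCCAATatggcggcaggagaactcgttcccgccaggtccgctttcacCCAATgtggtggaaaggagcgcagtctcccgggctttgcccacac
Pcna: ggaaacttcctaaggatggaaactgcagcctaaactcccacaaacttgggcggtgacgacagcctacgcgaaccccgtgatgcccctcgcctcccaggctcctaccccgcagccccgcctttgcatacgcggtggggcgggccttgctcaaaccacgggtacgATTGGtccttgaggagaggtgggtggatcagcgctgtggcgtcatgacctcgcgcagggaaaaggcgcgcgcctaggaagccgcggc
Mcm5: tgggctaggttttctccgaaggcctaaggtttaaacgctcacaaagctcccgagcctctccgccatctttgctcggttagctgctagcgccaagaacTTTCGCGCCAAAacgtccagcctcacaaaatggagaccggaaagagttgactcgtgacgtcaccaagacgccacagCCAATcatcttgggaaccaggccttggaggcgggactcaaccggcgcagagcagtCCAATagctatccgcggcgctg
The Mcm5 stretch holds 2 overlapping E2F matches, 1 on each strand, and 2 CCAAT matches, while Rrm1 has 2 and Pcna 1 CCAAT match and no match to the other motifs in this window. Of the 9 S phase genes with a promoter listed, 3 held an E2F match (Mcm5, Mcm6 and Mcm7), 2 a CHR match and 8 a CCAAT match. Here a gene counts if any of its promoter entries holds a match. Over all 32851 promoter entries of the table, each counted singly and not by gene, the shares were 1.86%, 17.1% and 33.8%. A match is a run of letters and was not tested for binding.

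Ribonucleotide reductase, the enzyme that makes deoxyribonucleotides, had the only S phase gene, Rrm1, whose sign followed the dye orientation on 6 of 6 arrays. Its large subunit Rrm1 lay at 0.54, 0.29, 0.04, -0.28, -0.50 and -0.41 on arrays 1 to 6. These values change sign with the orientation, so that with arrays 1 to 3 turned Rrm1 was below 0 on 6 of 6 arrays, as were 2.23% of all probes with 6 values. The estimate was -0.05 ± 0.12 (SE, n = 6; limma adjusted p = 0.928) as deposited and -0.34 ± 0.12 (SE, n = 6; unadjusted p = 0.0223, adjusted p = 0.972) with arrays 1 to 3 turned. Leaving out each array in turn, the turned estimate ran from -0.40 to -0.28, and the unadjusted p was above 0.05 without array 1, 2, 5 or 6. The small subunit Rrm2, whose amount limits the enzyme in S phase, lay at 0.48, 0.33, -0.21, -0.54, -0.19 and -0.29 on arrays 1 to 6. Array 3 alone stood against the orientation for this gene. Its estimate was -0.07 ± 0.13 (SE, n = 6; limma adjusted p = 0.924) as deposited and -0.27 ± 0.13 (SE, n = 6; limma adjusted p = 0.972) turned, and neither passed.

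Pcna and Tyms differed more between arrays. The clamp gene Pcna lay at 0.48, 0.22, 0.80, 0.92, -0.42 and -0.27 on arrays 1 to 6. It was high on arrays 1 to 4 and low on arrays 5 and 6, so that arrays of the cy5 orientation lay on both sides of 0. Its estimate was 0.29 ± 0.20 (SE, n = 6; limma adjusted p = 0.921) as deposited, -0.0013 without arrays 3 and 4, and -0.21 ± 0.20 (SE, n = 6; limma adjusted p = 0.972) turned. Tyms, which makes thymidylate, lay at 0.09, 0.21, -0.20, -0.30, 0.17 and -0.70 on arrays 1 to 6. Array 6 held the value furthest from 0, and the estimates were -0.12 ± 0.15 as deposited and -0.16 ± 0.15 turned (SE, n = 6; limma adjusted p = 0.921 and 0.972).

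The 6 subunits of the Mcm helicase, which unwinds DNA as a ring with 1 copy of each, did not share a sign on any array but array 1. Mcm2 lay at 0.58, 0.31, -0.69, -0.34, 0.76 and -0.28 on arrays 1 to 6, Mcm3 at 0.10, -0.01, 0.76, -0.12, 0.69 and -0.02, and Mcm4 at 0.67, 0.01, -0.27, 0.12, -0.16 and -0.36. On array 5, Mcm2 and Mcm3 were at the 98.9 and 98.3 percentile of all probes, while Mcm4 was at 26.3. Mcm5 lay at 0.37, 0.13, -0.79, 0.15, -0.10 and -0.50, Mcm6 at 0.14, -0.23, 0.59, 0.16, 0.02 and 0.63, and Mcm7 at 0.15, 0.03, -0.09, -0.32, 0.13 and 0.10. On array 6, Mcm5 and Mcm6 were at the 7.9 and 93.9 percentile. As deposited, the estimates of Mcm2 to Mcm7 were 0.06, 0.23, 0.0032, -0.13, 0.22 and 0.00059, with standard errors from 0.12 to 0.22 (n = 6). With arrays 1 to 3 turned they were -0.0086, -0.05, -0.13, -0.03, 0.05 and -0.03. The limma adjusted p of these 6 genes was 0.921 or above under both readings.

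The G1 and S phase entry genes lay above 0 together on array 1, in 6 of 6 genes with a value, and on no other array shared a sign. Cyclin D1 (Ccnd1), which activates Cdk4 in G1, lay at 0.20, 0.06, -0.78, -0.42, -0.09 and 0.05 on arrays 1 to 6. Cyclin E1 (Ccne1), the partner of Cdk2 at the start of S phase, lay at 0.12, -0.09, -0.02, -0.41, -0.01 and -0.12. Its 6 values spanned little, and array 4 was the lowest. Cdk2 lay at 0.19, 0.17, -2.12, -0.20, 0.42 and 0.21, so that array 3 alone held a large value. Estimates as deposited were -0.16 ± 0.16, -0.09 ± 0.11 and -0.22 ± 0.31 for Ccnd1, Ccne1 and Cdk2 (SE, n = 6; limma adjusted p = 0.921 each). Without arrays 3 and 4 they stood at 0.06, -0.03 and 0.25. Turned, these 3 genes had estimates of 0.01, -0.09 and 0.37. Cyclin D2, Cdk4 and the transcription factor gene E2f1 had estimates between -0.13 and 0.07 as deposited. Thymidine kinase, Tk1, had 3 values, of 2.16, 0.17 and -0.48 on arrays 3, 5 and 6. Medians over these genes were 0.19, 0.01, -0.40, -0.31, 0.07 and -0.12 on arrays 1 to 6.

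Among the genes of G2 and mitosis, the proliferation markers Top2a and Mki67 stood at the top of array 1 and near the top of array 2. Their promoters are shown with that of Cdk1, since all 3 hold CHR matches, and capitals mark matches as above. Top2a lies at chr11:99024190-99024439, Mki67 at chr7:135716380-135716629 and Cdk1 at chr10:69352913-69353162, all on the minus strand of GRCm38.p6.
Top2a: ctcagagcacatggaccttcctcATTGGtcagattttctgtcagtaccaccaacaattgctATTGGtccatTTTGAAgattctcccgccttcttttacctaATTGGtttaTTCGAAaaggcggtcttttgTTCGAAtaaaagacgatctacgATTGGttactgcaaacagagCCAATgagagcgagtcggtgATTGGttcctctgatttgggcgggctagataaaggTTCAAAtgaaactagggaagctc
Mki67: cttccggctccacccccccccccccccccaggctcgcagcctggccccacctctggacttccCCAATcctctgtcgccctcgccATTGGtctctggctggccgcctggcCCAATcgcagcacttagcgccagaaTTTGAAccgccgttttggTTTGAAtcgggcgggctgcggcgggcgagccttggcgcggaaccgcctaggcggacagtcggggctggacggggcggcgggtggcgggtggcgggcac
Cdk1: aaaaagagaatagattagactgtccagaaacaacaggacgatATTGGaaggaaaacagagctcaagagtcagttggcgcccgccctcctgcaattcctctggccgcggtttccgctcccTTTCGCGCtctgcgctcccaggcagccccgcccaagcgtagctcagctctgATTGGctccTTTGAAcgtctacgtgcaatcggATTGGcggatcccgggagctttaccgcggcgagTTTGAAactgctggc
Top2a holds 4 CHR and 6 CCAAT matches, Mki67 2 and 3, and Cdk1 2 and 3 beside 1 E2F match. Of the 14 genes of G2 and mitosis with a promoter listed, 8 held a CHR match, 13 a CCAAT match and 1 an E2F match. The shares of all promoter entries are given above.

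Top2a, the topoisomerase that untangles replicated chromosomes, lay at 0.89, 0.52, 0.60, 0.11, -0.30 and -0.51 on arrays 1 to 6. It was above 0 on arrays 1 to 4 and below on 5 and 6. The estimate was 0.22 ± 0.13 (SE, n = 6; limma adjusted p = 0.921) as deposited. With arrays 1 to 3 turned it was -0.45 ± 0.13 (SE, n = 6; unadjusted p = 0.0101, limma adjusted p = 0.972), below 0 on 5 of 6 arrays. The turned estimate ran from -0.54 to -0.38 when each array was left out, with an unadjusted p above 0.05 without array 1 or array 6. Mki67, the gene of the Ki-67 protein that coats mitotic chromosomes, lay at 0.96, 0.40, -0.21, 0.12, 0.0020 and 0.03 on arrays 1 to 6. Arrays 1 and 2 held its highest values, with estimates of 0.22 ± 0.16 as deposited and -0.17 ± 0.16 turned (SE, n = 6; limma adjusted p = 0.921 and 0.972).

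The cyclin and kinase genes of mitotic entry did not share a pattern. Cyclin A2 (Ccna2), which serves both S phase and mitotic entry, lay at 0.43, 0.39, 0.07, -0.11, 0.24 and -0.05 on arrays 1 to 6, and its estimates were 0.16 ± 0.12 as deposited and -0.14 ± 0.12 turned (SE, n = 6). Cdk1, the kinase that starts mitosis, lay at 0.48, 0.06, -0.95, -0.66, 0.22 and -0.44. Arrays 3 and 4 held its lowest values, and the estimate of -0.21 ± 0.21 (SE, n = 6) stood at 0.08 without them. For both genes the limma adjusted p was 0.921 as deposited.

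Centromere and spindle genes lay apart from each other on array 3. Cenpe, a kinesin that links chromosomes to the spindle, lay at 0.39, 0.18, -0.03, -0.05, 0.33 and 0.16 on arrays 1 to 6, above the array's own median on 6 of 6 arrays. Ncapg and Lmnb1, among the other genes of mitosis, were so too, and the share of all probes was not counted. The estimate of Cenpe was 0.16 ± 0.12 as deposited, 0.26 ± 0.08 without arrays 3 and 4 (SE, n = 4; limma adjusted p = 0.310) and -0.02 ± 0.12 turned (SE, n = 6). Cenpa, the histone variant that marks the centromere, lay at 0.21, 0.14, -1.58, -0.63, 0.28 and -0.23. Kif11, the kinesin that pushes the spindle poles apart, lay at -0.08, -0.15, -1.56, 0.18, 0.02 and 0.14. Array 3 held the lowest value of both, and Kif11 was the only one of these genes above 0 on 6 of 6 arrays once arrays 1 to 3 were turned, as were 1.67% of all probes. Estimates as deposited were -0.30 ± 0.26 for Cenpa and -0.24 ± 0.21 for Kif11 (SE, n = 6), and they stood at 0.10 and -0.02 without arrays 3 and 4. Birc5, the survivin subunit of the chromosomal passenger complex, lay at 0.25, 0.29, -0.74, -0.57, -0.11 and -0.21. It was above 0 only on arrays 1 and 2, with estimates of -0.18 ± 0.17 as deposited and -0.12 ± 0.17 turned (SE, n = 6). The limma adjusted p was 0.921 for each of these 4 genes as deposited.

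The other 8 tested genes of G2 and mitosis, namely Ccnb2, Cdc20, Cdc25c, Aurka, Bub1, Bub1b, Plk1 and Hmgb2, had estimates between -0.17 and 0.18 as deposited. Hmgb2, a chromatin protein gene named here after its values were seen, lay at 0.75, 0.45, -1.17, -0.51, 0.05 and -0.14 on arrays 1 to 6, high on the first pair of arrays and low on the second. Aurkb, the kinase of the chromosomal passenger complex, had values of -0.52 and 1.55 on arrays 2 and 3 alone. Over all 17 genes the medians were 0.25, 0.13, -0.03, -0.12, 0.04 and -0.10 on arrays 1 to 6, beside 0.05, 0.04, -0.24, -0.13, 0.04 and -0.004 over all named genes.

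**Figure D2:**
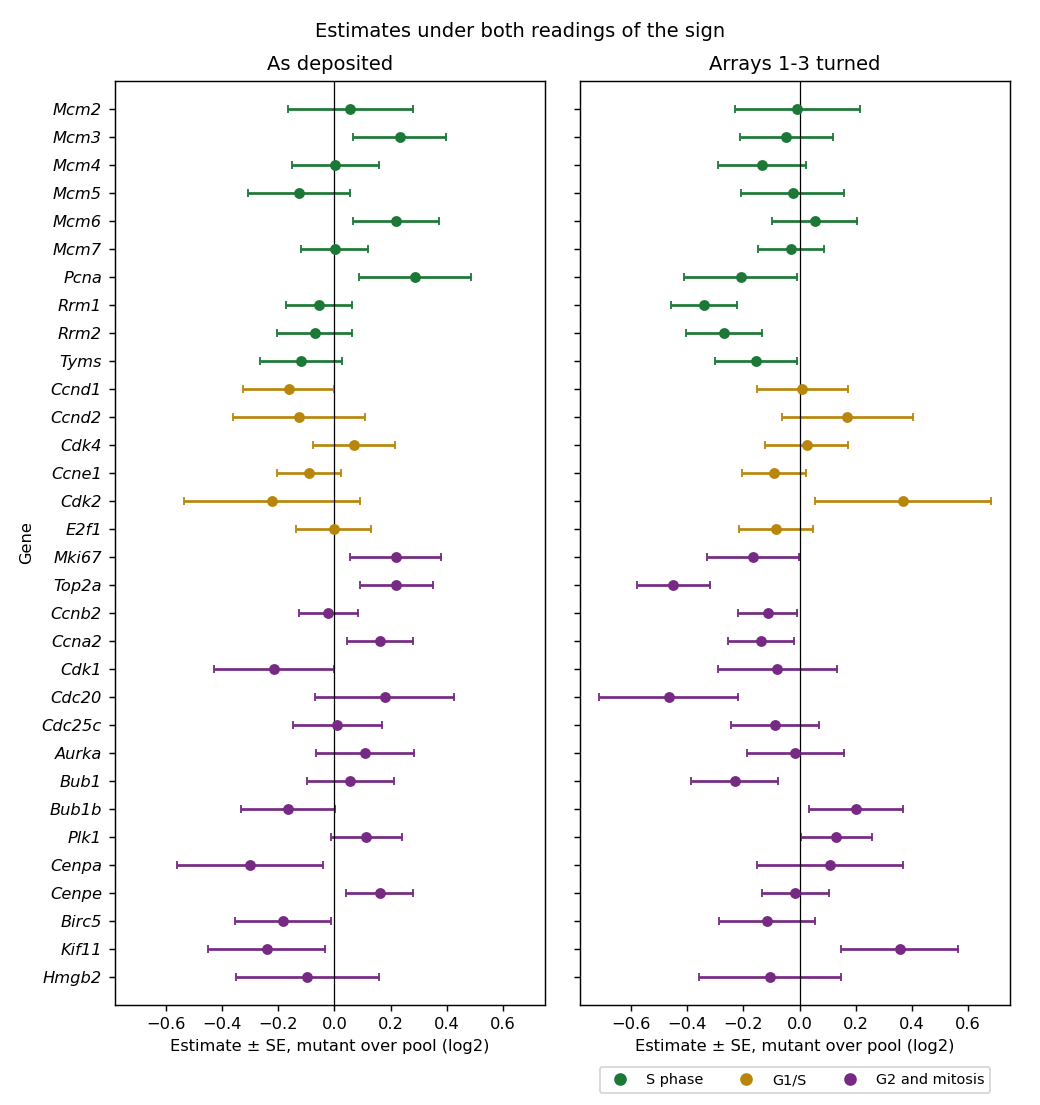
Estimates of the 32 tested genes in log2 (base assumed) with their standard errors as bars, by role in colour, with signs as deposited (left) and with arrays 1 to 3 turned (right). As deposited 16 lie above 0, and turned 9 do. Rrm1 at -0.34 and Top2a at -0.45 are the 2 genes with an unadjusted p under 0.05 on the right, and none passes after adjustment.

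S phase genes were set against the genes of G2 and mitosis within each array, which needs no centring. The S phase median minus the mitotic median was 0.17, 0.04, -0.11, -0.07, -0.08 and -0.19 on arrays 1 to 6. Its mean was -0.04 ± 0.13 (SD, n = 6) as deposited, with 2 of 6 arrays above 0. With arrays 1 to 3 turned it was -0.07 ± 0.11 (SD, n = 6), with 1 of 6 above 0. Without arrays 3 and 4 these means were -0.02 ± 0.16 and -0.12 ± 0.07 (SD, n = 4), and in the turned reading the S phase median was then the lower on 4 of 4 arrays. The mean difference was smaller than the spread between arrays in both readings with 6 arrays. Given the choice of genes, no p was computed for it.

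**Figure D3:**
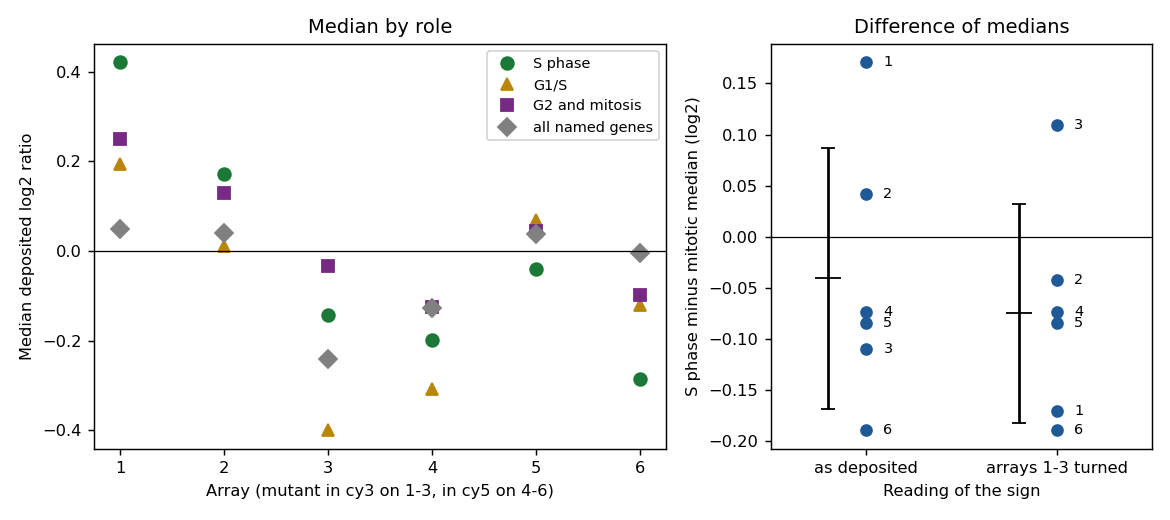
Left, median deposited log2 ratio of the S phase, G1/S, and G2 and mitosis genes and of all named genes on each array. Right, S phase minus mitotic median on each array (points, numbered by array) with the mean and SD over 6 arrays (bars), for both readings of the sign. The S phase median runs from 0.42 on array 1 to -0.29 on array 6, and the differences from 0.17 to -0.19 as deposited.

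Other genes of replication, from a list of 55 of which 34 had a probe, stood on the same side of 0 as the S phase genes, by their medians, on each of the 6 arrays. These medians were 0.39, 0.29, -0.23, -0.05, -0.14 and -0.33 on arrays 1 to 6, and the median percentiles were 88.9, 88.1, 50.2, 56.1, 27.9 and 18.7. The medians of all named genes had the same signs on every array but array 5, at 0.05, 0.04, -0.24, -0.13, 0.04 and -0.004. In the turned reading 27 of 33 replication estimates lay below 0 and 6 above, where 53% of all probes lay above 0. Their median was -0.20. As deposited 14 of 33 lay below 0 and 19 above, where 43.3% of all probes lay above 0, with a median of 0.03. In both readings 0 of 33 passed after adjustment. Values above 0 on arrays 1 and 2 and below 0 on arrays 5 and 6 were seen for 19 of 33, beside the 5 of 10 S phase genes and 3 of 15 genes of G2 and mitosis with values there (Birc5, Ccnb2 and Top2a), and 5 of 33 other genes of mitosis. All probes gave 16.9%, and Xist had these signs too, as above. The combination was not planned, and the lists were chosen with earlier results of these data known, so these counts only describe. Turned without arrays 3 and 4, an estimate contrasts the same arrays, and the part of embryo sex in it was not tested. Without arrays 3 and 4, 18 of 33 turned estimates had an unadjusted p under 0.05 and lay below 0, where 12.8% of all 4728 probes tested did. For the S phase genes this count was 4 of 10, namely Mcm5, Pcna, Rrm1 and Rrm2, and for the genes of G2 and mitosis 4 of 15, namely Mki67, Top2a, Birc5 and Hmgb2. No gene passed after adjustment there, and the smallest limma adjusted p among these genes was 0.146.

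Single replication genes were read next. The mismatch repair gene Msh6 lay at 0.84, 0.41, 0.54, 0.12, -0.29 and -0.42 on arrays 1 to 6, and the primase subunit gene Prim2 at 0.37, 0.37, 1.35, 0.65, -0.29 and -0.74. Both were above 0 on arrays 1 to 4 and below on arrays 5 and 6, as Top2a and Pcna were. Xist and the progenitor gene Sox2 had these signs too, as did other replication genes such as Orc1 and Dut. The pattern was not planned in advance, and the share of all probes with it was not counted. Estimates as deposited were 0.20 ± 0.13 for Msh6 and 0.28 ± 0.22 for Prim2, against -0.40 ± 0.13 and -0.41 ± 0.22 turned (SE, n = 6; limma adjusted p = 0.921 and 0.972 in the 2 readings). Orc5 and Orc3, subunits of the complex that marks origins, had estimates of 0.42 ± 0.20 and 0.21 ± 0.13 as deposited and -0.26 ± 0.20 and -0.19 ± 0.13 turned (SE, n = 6). Pola1, the catalytic subunit of the polymerase that starts each strand, is named after its values were seen. It lay at 0.47, 0.55, -0.35, -0.27, -0.28 and -0.41 on arrays 1 to 6, and array 3 alone stood against the orientation. Its turned estimate was -0.27 ± 0.15 (SE, n = 6; limma adjusted p = 0.972), and without arrays 3 and 4 it was -0.43 ± 0.07 (SE, n = 4; limma adjusted p = 0.146).

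**Figure D4:**
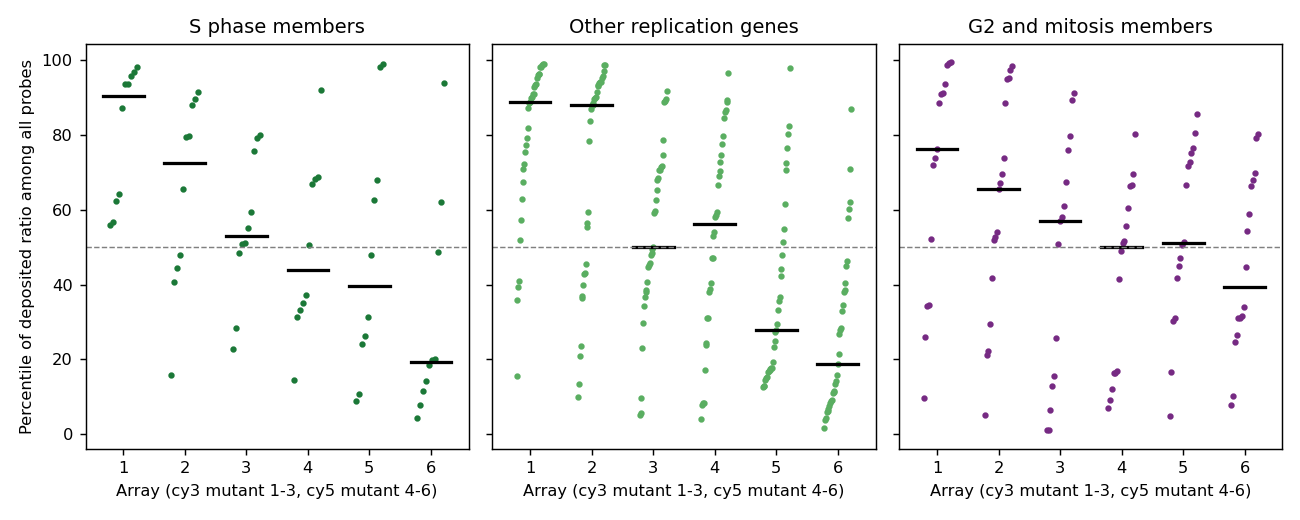
Percentile of the deposited ratio of each gene among all probes of the same array, for the S phase genes (left), the other replication genes (middle) and the genes of G2 and mitosis (right). Points are genes, sorted within an array, black bars their medians, and the dashed line the 50th percentile. Median percentiles of the S phase genes are 90.4 on array 1 and 19.2 on array 6, and those of the other replication genes 88.9 and 18.7.

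Other genes of mitosis, from a list of 60 of which 34 had a probe, had medians of 0.31, 0.11, -0.60, -0.31, 0.18 and -0.04 on arrays 1 to 6. Of 33 tested, 10 estimates lay above 0 as deposited, where 43.3% of all probes did. With arrays 1 to 3 turned 17 did, where 53% of all probes did. The 4 with the smallest unadjusted p were the condensin subunit gene Ncapg at 0.26 ± 0.13, the kinetochore gene Cenpf at 0.30 ± 0.15, the nuclear lamina gene Lmnb1 at 0.21 ± 0.11 and the cytokinesis kinesin gene Kif20a at 0.21 ± 0.13 (SE, n = 6; limma adjusted p = 0.921 each). Ncapg and Lmnb1 lay above 0 on 6 of 6 arrays as deposited, as did 1.06% of all probes with 6 values. Brakes and regulators of the cycle, 26 tested, had 9 estimates above 0 as deposited and 16 turned, beside the same shares of all probes. The cyclin kinase inhibitor gene Cdkn1c stood at -0.24 ± 0.20, the stress response gene Gadd45g at -0.26 ± 0.23, Ccng2 at -0.21 ± 0.16 and Btg1, an antiproliferative gene, at -0.16 ± 0.15 (SE, n = 6; limma adjusted p = 0.921 each). Each of these 4 had its lowest value on array 3, and without arrays 3 and 4 they stood between 0.03 and 0.07. In both lists 0 genes passed.

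Markers of the cell types of the tissue were read beside these values. The 10 progenitor genes with values, such as Pax6 and Sox2, had medians of 0.21, 0.17, 0.38, 0.09, 0.01 and -0.05 on arrays 1 to 6. For 10 neuronal genes, such as Dcx and Map2, the medians were -0.10, 0.11, -0.98, -0.14, 0.10 and -0.08. Meninges and vessel genes stood at -0.40, -0.20, -0.33, 0.03, 0.07 and 0.26, over 4 to 9 genes an array. Erythroid genes, which dividing blood precursors carry, stood at -0.08, -0.27, 0.24, 0.005, 0.05 and -0.0003, and microglial genes at -0.12, 0.08, 0.34, 1.24, -0.26 and 0.26 over 3 to 7 genes. The part of these cell types in the values above was not tested, and absolute levels are not given by ratios.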

How the data were processed

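Neocortex RNA of 6 mutant embryos was measured on 6 arrays of 2 colours against 1 wild-type pool. The deposited values are log2 ratios with the base assumed, since the deposited table states no log base, direction or normalization. How the authors made them is not given in the sources used here. Scanner intensities were not used here, so dim and bright probes are treated alike. The platform annotation gave 6269 of 6856 probes 1 symbol, 6 several and 581 none, and all 34 probes of the genes described matched RefSeq by gene identifier. The targeted gene is not reported here.

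Probes measured at least 2 times per orientation were fitted in R 4.3.3 by limma 3.58.1. The model held an intercept (the mutant effect) plus a dye term, and its two-sided p-values were adjusted over 4958 probes by Benjamini-Hochberg. The fit was tested only on simulated data with independent arrays, unlike the correlated pairs seen here. The simulated effects were larger than the estimates given here. Signs were taken as deposited in the main fit. Medians of lists use probes averaged per gene. The genes and lists were chosen with earlier results of these data known. Values on each array are given for all S phase genes, for the 3 G1/S and 8 mitotic genes with the smallest unadjusted p, and estimates for up to 4 genes of each other list by the same rule. Nothing in the labels says that the mutants came from separate litters, so p-values measure the spread between these samples. Alternatives were turned arrays 1 to 3, no dye term, median centring, scaling, complete probes, array weights, robust moderation (statmod 1.5.0), averaging per gene, leaving out arrays, and correlated pairs of arrays as a random block.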

Additional observations from a re-analysis of the deposited data

Results flagged for a closer look

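Of 37 sets of array values examined for an array far from the others, 3 had one. By chance about 1 in 20 would if the arrays were alike in spread, which they were not. Cdk2 lay at -2.12 on array 3, with the next lowest array at -0.20. Kif11 lay at -1.56 on array 3, with the next lowest at -0.15. Ncapg lay at 0.87 on array 1, with the next highest at 0.25. Array 3 had the largest standard deviation of the 6, at 1.09 over all probes, and its part in the first 2 values was not tested.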

How the results depend on the processing

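No cell cycle, replication, mitosis or brake gene listed passed the adjusted threshold in any alternative run, while the meninges marker Col1a1 did in the turned fit with array weights (adjusted p = 0.0256). The count of probes passing was 0 in the main fit, 1 without arrays 3 and 4, 2 with array weights and 31 with array weights after turning, and 0 in every other alternative. Genes of the 32 with an unadjusted p under 0.05 numbered 0 in the main fit, 2 turned, 1 with scaled arrays, 6 without arrays 3 and 4, 3 with array weights and 0 to 1 leaving out each array (1, Mki67, without array 3). In the alternatives chosen after seeing the data they numbered 8 turned without arrays 3 and 4, 11 turned with array weights, 3 turned and centred, and 0 to 6 turned and leaving out each array, the 6 without array 3. With pairs of arrays as a random block they numbered 0 in both readings. Leaving out arrays 3 and 4 with signs as deposited also rested on these data, namely on the correlation and width of those arrays. The S phase minus mitotic mean ran from -0.08 to -0.01 leaving out each array and in every alternative run for it lay within 0.13, the SD over 6 arrays as deposited, of its main value. It was -0.12 ± 0.07 (SD, n = 4) turned without arrays 3 and 4, further from 0 than its own SD.

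Signs of estimates that did not pass changed often. Turned, Mcm2 stood at -0.0086, Mcm3 at -0.048, Mcm4 at -0.13, Mcm7 at -0.030, Pcna at -0.21, Ccnd1 at 0.0096, Cdk2 at 0.37, Top2a at -0.45, Ccna2 at -0.14, Cenpe at -0.015, Mki67 at -0.17, Kif11 at 0.36, Cenpa at 0.11, Orc5 at -0.26, Orc3 at -0.19, Msh6 at -0.40, Prim2 at -0.41, Ncapg at -0.14, Cenpf at -0.091, Kif20a at -0.069, Ccng2 at 0.13, Cdkn1c at 0.21, Gadd45g at 0.12 and Btg1 at 0.060. Turned without arrays 3 and 4, Mcm2 stood at -0.100, Mcm4 at -0.30, Pcna at -0.35, Cdk2 at 0.068, Top2a at -0.55, Ccna2 at -0.16, Cenpe at -0.017, Mki67 at -0.33, Kif11 at 0.100, Orc5 at -0.19, Orc3 at -0.29, Msh6 at -0.49, Prim2 at -0.44, Ncapg at -0.22, Cenpf at -0.22, Ccng2 at 0.11, Cdkn1c at 0.18 and Btg1 at 0.021. Signs as deposited but without arrays 3 and 4, Pcna stood at -0.0013, Rrm2 at 0.081, Ccnd1 at 0.055, Cdk2 at 0.25, Cenpa at 0.099, Birc5 at 0.055, Cdk1 at 0.082, Prim2 at -0.072, Ccng2 at 0.025, Cdkn1c at 0.072, Gadd45g at 0.050 and Btg1 at 0.053. With array weights, Mcm4 stood at -0.0010, Rrm2 at 0.049, Ccnd1 at 0.033, Cdk2 at 0.20, Cenpa at 0.026, Birc5 at 0.028, Prim2 at -0.048, Cdkn1c at 0.032 and Btg1 at 0.014. With scaled arrays Rrm2 stood at 0.012 and Cdk2 at 0.042. Leaving out each array, the ranges that crossed 0 were -0.12 to 0.25 for Mcm2, -0.13 to 0.11 for Mcm4, -0.24 to 0.048 for Mcm5, -0.039 to 0.074 for Mcm7, -0.12 to 0.0079 for Rrm1, -0.14 to 0.031 for Rrm2 and -0.42 to 0.16 for Cdk2. The cause of these changes was not tested.

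No paired analysis was possible because the labels number only 1 group of mutants, each set against the same pool. The block on pairs of arrays rests on their correlation, not on the labels. A filter on dim probes, another background correction and slide as a block were not run, since scanner intensities and slides were not used here.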
